A study of Mus musculus with 9 samples.

Results

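The genes of the cytosolic ribosomal proteins were examined in 9 array samples of GFP-labelled 3LL cells, a mouse line of Lewis lung carcinoma (LLC). Members were taken by gene symbol: Rpl or Rps followed by a digit, Rplp followed by a digit, or Rpsa, without the S6 kinases (Rps6k) and without pseudogene symbols. The rule found 68 of the 19505 genes tested. Of these, 33 code proteins of the large subunit and 22 proteins of the small subunit, 11 are paralog copies (such as Rpl22l1 or Rps27l), and 2 code no ribosomal subunit. The last are Rps19bp1, whose product binds a ribosomal protein, and Rps23rg1, which was set apart after its values were seen. Each member had 1 feature on the array. The rule's genes Rplp2, Rps3, Rps27a, Rpl13a, Rpl10 and Rps27 were not analysed here.

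The samples fall into 3 groups of 3 arrays. The dish group was grown as a culture for 7 days. The cells of the subcutaneous group were transplanted under the skin, and those of the lung group into the lung. From both, GFP-positive cells were recovered after 7 days. All samples carry the same line, and the strain is given as C57/BL6. The labels name no separate animals or cultures behind the 3 samples of a group, so the p-values given here rest on a spread that may be technical. Isolation by GFP was a step of both transplanted groups and is not named for the dish group.

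Ribosomal proteins coat the ribosomal RNA of the 2 subunits: the small one decodes the message, and the large one joins amino acids. Cells need them in nearly equal numbers, and their messages are among the most abundant of a growing cell. Many of these messages begin with a 5' terminal oligopyrimidine (TOP) tract, a C followed by a run of C or T bases, through which mTORC1 and the RNA-binding protein Larp1 govern their translation. The array measures message levels, not translation or the number of ribosomes. Each value is a log2 signal, so a difference of 1 is a doubling; signals of different genes are not comparable, since they depend on the probes.

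Promoter windows in the RefSeq table (mouse build GRCm38.p6) were found for 55 of the 68 members. A TOP start was counted where the first base of the table's gene start is C and at least 4 bases of C or T follow. It was present in 13 of these 55 genes (23.6%), against 3.01% of the 27025 genes of the table. A run that begins only after the table's start was not counted, so a gene without a counted start may still have a TOP message. The following windows show 15 bases before and 15 from the start on, 5' to 3' on the gene's strand, with the TOP run in capitals. The first 5 genes have one; Rpl39 and Rpl7l1, the members with the widest differences between groups below, do not have one at the start given by the table.
Rps10, chr17:27635230-27635259, minus strand: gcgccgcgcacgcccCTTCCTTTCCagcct
Rps27rt, chr9:114982725-114982754, minus strand: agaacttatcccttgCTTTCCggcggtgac
Rps6, chr4:86857353-86857382, minus strand: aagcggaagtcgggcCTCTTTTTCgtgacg
Rpl38, chr11:114668565-114668594, plus strand: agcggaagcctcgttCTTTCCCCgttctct
Rpl32l, chr10:20208424-20208453, plus strand: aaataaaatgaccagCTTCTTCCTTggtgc
Rpl39, chrX:37085208-37085237, minus strand: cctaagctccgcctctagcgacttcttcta
Rpl7l1, chr17:46782642-46782671, minus strand: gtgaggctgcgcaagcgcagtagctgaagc

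A pair of short motifs was also searched on both strands of the 300-base windows (250 bases before the start and 50 after). CCGGAAG, the core of sites for ETS transcription factors, was found in 21 of 55 members (38.2%), against 9.93% of all genes. AAGATGG, the core of sites for the factor YY1, was found in 8 (14.5%), against 7.28%. Read on the other strand, the ETS core begins with a C and 4 bases of C or T, so 1 stretch at a gene start can count both as a TOP start and as an ETS core. The 150 bases before the start of Rps10 hold the ETS core, in capitals.
Rps10, chr17:27635245-27635394, minus strand: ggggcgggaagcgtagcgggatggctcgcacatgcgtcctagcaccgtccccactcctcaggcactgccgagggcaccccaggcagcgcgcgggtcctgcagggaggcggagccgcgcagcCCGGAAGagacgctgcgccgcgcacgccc

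Signals were high in every group. As a guide to background, the value that 90% of the negative controls stayed under was taken on each array, and 63 members exceeded it on all 9. The remaining 5, Rpl3l, Rpl10l, Rpl39l, Rps4l and Rps23rg1, lay below it on all 9, and nothing is read from their differences. Rpl3l, Rpl10l and Rpl39l are copies known from muscle or testis. For the 55 subunit genes, the SD within a group had a median of 0.10 in dish, 0.16 in subcutaneous and 0.22 in lung samples.

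Several measures of the whole series move with the groups, and their part in the results was not tested. Bacterial hybridization controls averaged 12.01 ± 0.15 (SD, n = 3) on dish, 12.83 ± 0.11 on subcutaneous and 11.35 ± 0.35 on lung arrays, with subcutaneous highest and lung lowest, as for most subunit genes below. The RNA integrity number (RIN) averaged 8.50, 7.97 and 8.17. A list of 43 genes with very long messages averaged 7.82, 8.05 and 9.13. Lung replicate 3 stood apart from the other lung arrays: its brightest gene reached 18.56, against 19.29 and 19.30. Among 4 fibroblast markers the mean level was 5.51 to 5.60 on dish, 9.72 to 10.18 on subcutaneous and 6.65 to 7.82 on lung arrays. Dcn and Lum were above background on all subcutaneous arrays, and the others of this list on none of them. Among 4 alveolar type II markers the mean level was 4.37 to 4.85 on dish, 3.98 to 4.49 on subcutaneous and 8.23 to 10.60 on lung arrays. Sftpc and Sftpa1 exceeded background on all lung arrays, Sftpb on only 1 and Sftpd on none. The mean of 2 airway secretory markers was 5.93, 8.05 and 13.39 on lung arrays 1, 2 and 3, against 3.85 to 4.93 on the other arrays, so lung replicate 3, the lowest for the members, had the most airway signal. Both alveolar type I markers, Ager and Cldn18, were called higher in lung than in subcutaneous samples. The mean of the pair was 7.73 to 8.36 on lung and 5.41 to 5.97 on subcutaneous arrays. Cldn18 exceeded background on all lung arrays. Ager exceeded it on only 1 lung array and on no subcutaneous array, and nothing is read from the difference of Ager. None of 6 leukocyte markers was above background on dish or subcutaneous arrays, and 1, Lyz2, was on 2 lung arrays; none of 3 endothelial markers was above it anywhere. Of the 4 markers listed for the line, Krt18 was below background on the dish arrays (5.27 to 5.98), while Krt8, Vim and Cd44 were above it. The mean level of the 4 was 9.43 to 10.14 on dish, 12.17 to 12.51 on subcutaneous and 10.40 to 11.28 on lung arrays. All 4 were called higher in subcutaneous than in dish samples, and 2 were called lower in lung than in subcutaneous samples. In bulk RNA, fewer cells of a type and less RNA per cell cannot be told apart.

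**Figure D1:**
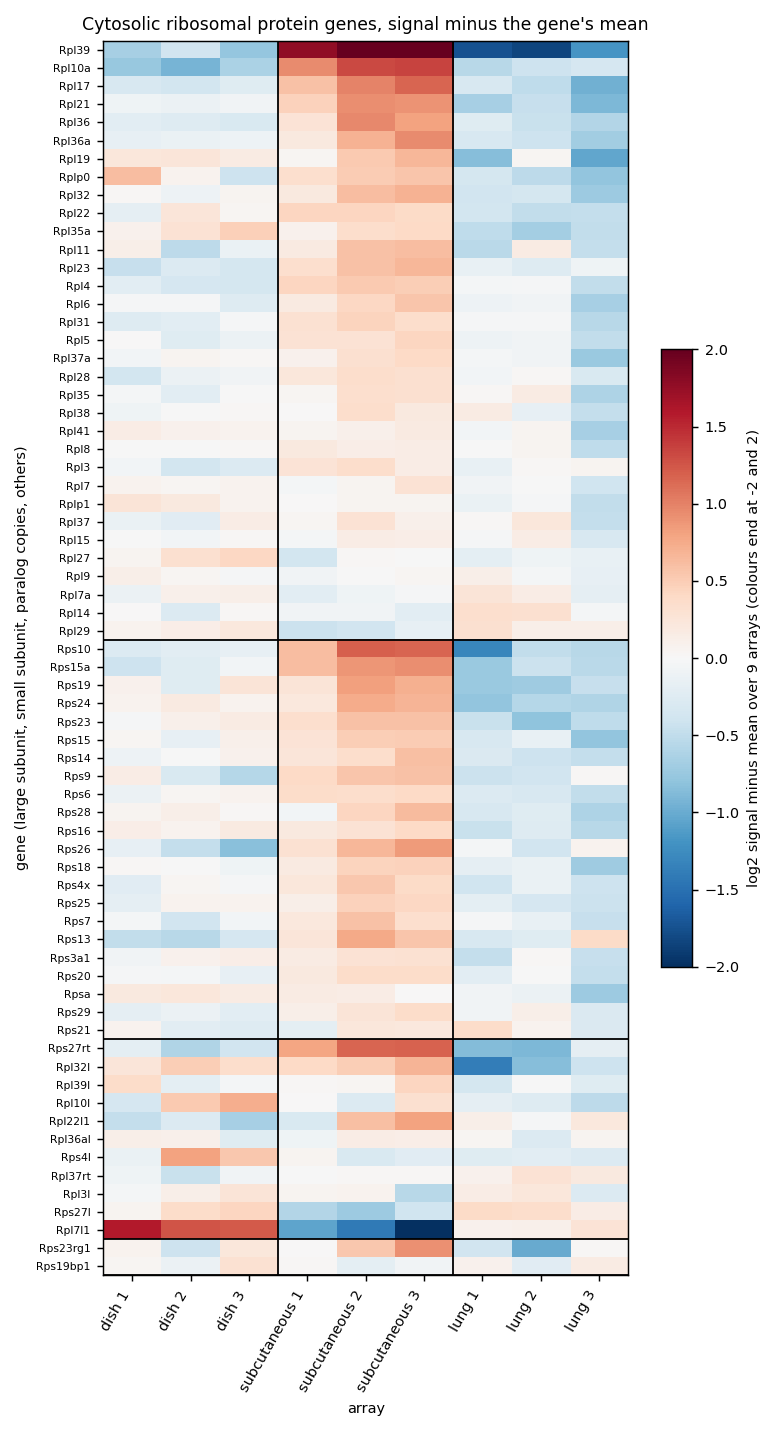
Log2 signal of each of the 68 genes on each of the 9 arrays, minus the gene's own mean over the arrays (rows: genes in 4 classes, ordered by the difference of lung from subcutaneous; columns: arrays). Most rows of both subunits are red on the 3 subcutaneous arrays and blue on the 3 lung arrays; Rpl7l1 and Rps27l show the reverse in subcutaneous samples.

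The subunit genes stood highest in the subcutaneous samples and lowest in the lung samples. Of the 55, 47 had their highest group mean in subcutaneous samples (85.5%, against 37.1% of all genes tested) and 43 their lowest in lung samples (78.2%, against 39.8%). After each gene's own mean was subtracted, the median over the 55 was -0.04, -0.05 and 0.00 on the dish arrays. It was 0.20, 0.43 and 0.40 on the subcutaneous arrays, and -0.20, -0.14 and -0.48 on lung arrays 1, 2 and 3. The 3 groups do not overlap in this median. Subcutaneous replicate 1 was the lowest of its group, and lung replicate 3 the lowest of all.

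The first comparison asked how the cells differed between the lung and the skin. Relative to subcutaneous samples, 23 of 68 members fell in lung samples and 2 rose (limma, Benjamini-Hochberg adjusted p under 0.05 over all 19505 genes). Over all genes, 5.79% fell and 9.21% rose in this comparison. The median log2 difference of the members was -0.58, beside -0.07 for all genes, and 60 of 68 differences were negative. All 3 lung values lay below all 3 subcutaneous values for 44 members, a pattern seen in 16.8% of all genes. By class, 12 of 33 large subunit genes and 9 of 22 small subunit genes fell and none rose (medians -0.56 and -0.72). At an unadjusted p under 0.05, 19 of the 33 and 19 of the 22 passed, beside 5675 of the 19505 genes tested. Of the 11 paralog copies, 2 fell and 2 rose (median -0.11).

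That count depended on single arrays and on the scaling. Without lung replicate 1 it was 14 members, and without subcutaneous replicate 2 or 3 it was 15. It was 15 with quantile normalization, which moved the median to -0.22, and 4 with the long-message level as a covariate, under which the median was -0.80 and 1.40% of all genes fell. For 549 other genes with a mean signal above 14 the median difference was 0.08, with 93 higher and 70 lower. Their median signal was 15.08 to 15.26 on the arrays, below the 16.40 to 17.15 of the members, so they are not matched to the members in signal.

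Rpl39, one of the smallest proteins of the large subunit, which lines the tunnel through which the new chain leaves, had the widest difference of all members. Its signal was 10.78, 11.06 and 10.68 in dish samples, 13.22, 13.81 and 13.89 in subcutaneous samples and 9.71, 9.61 and 10.26 in lung samples. The subcutaneous values were well above all others, and the lung values lay below the dish values. Rpl39 fell by 3.78 from subcutaneous to lung samples (SE 0.27, a 13.8-fold difference, adjusted p = 1.38e-05). It rose by 2.80 from dish to subcutaneous samples (adjusted p = 3.23e-05). It fell by 0.98 from dish to lung samples (adjusted p = 0.0469), a call lost without any 1 of the dish arrays (adjusted p 0.0842, 0.174 and 0.0877), lung replicate 1 (0.164), lung replicate 2 (0.162) or subcutaneous replicate 2 (0.0549).

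Rpl10a, a large subunit protein near the site where spent tRNA leaves, read 14.14, 13.97 and 14.27 in dish samples, 15.85, 16.22 and 16.25 in subcutaneous samples and 14.35, 14.49 and 14.56 in lung samples. The subcutaneous values stood well above both other groups, and the lung values lay just above the dish values. The gene fell by 1.64 in lung against subcutaneous samples (SE 0.23, adjusted p = 0.000639). In lung against dish samples the difference was 0.34 (95% interval -0.15 to 0.83, adjusted p = 0.416).

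Rps10, a small subunit protein near the entry of the mRNA channel, whose window above holds a TOP run, had 14.96, 15.02 and 15.07 in dish, 15.85, 16.43 and 16.40 in subcutaneous and 13.93, 14.74 and 14.67 in lung samples. The groups did not overlap, and lung replicate 1 was the lowest array. Its fall in lung against subcutaneous samples was 1.78 on the log2 scale, a 3.44-fold difference (adjusted p = 0.00116). Rps27rt, a retrotransposed copy of Rps27, had 15.73, 16.10 and 16.12 in subcutaneous against 14.07, 14.04 and 14.76 in lung samples. It fell by 1.69 (SE 0.26, adjusted p = 0.00124). Rpl17 fell 2.83-fold (adjusted p = 0.00191) and Rpl21 2.71-fold (adjusted p = 0.00168), both large subunit proteins. Their values in subcutaneous samples were 16.19 to 16.76 and 15.06 to 15.53, above the lung values of 14.65 to 15.28 and 13.70 to 14.14.

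**Figure D2:**
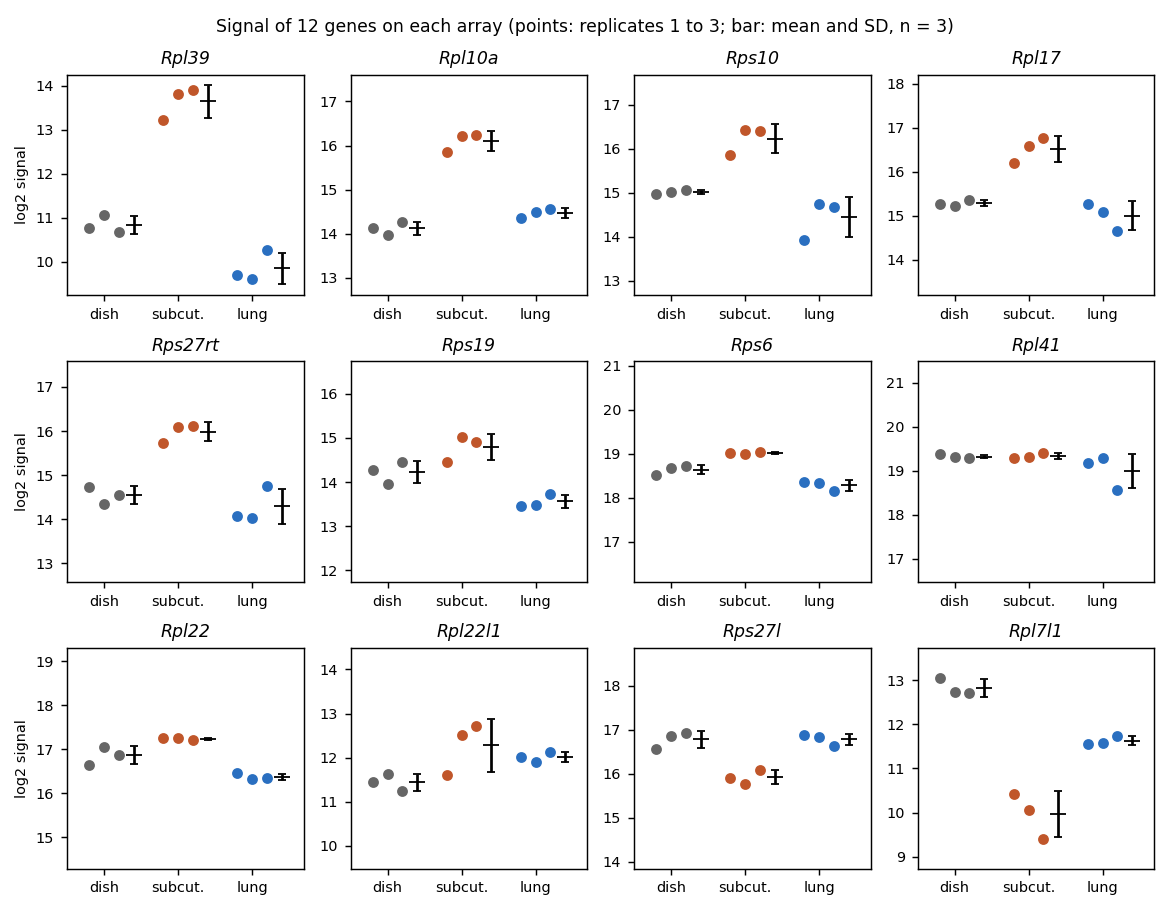
Log2 signal of 12 genes on each array (points: replicates 1 to 3 of each group; bar: mean and SD, n = 3; each panel spans 5 log2 units). Rpl39, Rpl10a, Rps10, Rpl17 and Rps27rt stand highest in subcutaneous samples, Rpl41 hardly differs apart from lung replicate 3, and Rps27l and Rpl7l1 are lowest in subcutaneous samples.

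Among proteins with a known special place, the stalk recruits the elongation factors to the ribosome. Its anchor Rplp0 had 14.64, 14.80 and 14.85 in subcutaneous and 13.94, 13.77 and 13.51 in lung samples, and fell by 1.02 (adjusted p = 0.0251). The call was lost without any 1 of the lung arrays (adjusted p 0.0543, 0.0636 and 0.069) or without subcutaneous replicate 2 (0.0619) or 3 (0.0693). Its partner Rplp1 differed by -0.25 (95% interval -0.73 to 0.23, adjusted p = 0.504). Rpl5 and Rpl11, which carry the 5S RNA into the large subunit and bind Mdm2 when assembly fails, differed by -0.56 (adjusted p = 0.119) and -0.74 (adjusted p = 0.0885). The highest lung value of Rpl5 was 18.51, under its lowest subcutaneous value of 18.88, and for Rpl11 these were 15.69 and 15.70.

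In the small subunit, Rps6 is the protein that the S6 kinases phosphorylate. It read 19.01, 19.00 and 19.04 in subcutaneous and 18.37, 18.33 and 18.15 in lung samples, and fell by 0.73 (adjusted p = 0.0357). Rps19, the gene most often mutated in Diamond-Blackfan anaemia, had 14.46, 15.01 and 14.91 against 13.46, 13.49 and 13.73, and fell by 1.23 (adjusted p = 0.00515). Rps14, known from the 5q- syndrome, fell by 0.79 (adjusted p = 0.0286), and Rps15, which sits near the decoding centre, by 0.84 (adjusted p = 0.0338). The calls of Rps6, Rps14 and Rps15 were near the threshold, and each was lost on leaving out single arrays. The adjusted p without lung replicate 1 was 0.0897, 0.0745 and 0.0839, and without lung replicate 3 it was 0.0836, 0.0626 and 0.102. Without subcutaneous replicate 2 it was 0.069, 0.0537 and 0.0804, and without subcutaneous replicate 3 it was 0.0769, 0.0879 and 0.0865. Rps6 and Rps14 also lost the call without lung replicate 2 (0.0817 and 0.0801), and Rps6 without dish replicate 2 (0.051) or subcutaneous replicate 1 (0.0652). Under quantile normalization, the differences of Rps6 and Rps14 were -0.32 and -0.37.

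Other members of known role gave no call. Rpsa, a small subunit protein that is also the laminin receptor precursor, differed by -0.41 (adjusted p = 0.28). Rpl38, known for its role in the translation of Hox messages, differed by -0.34 (adjusted p = 0.383), and Rpl41, the shortest ribosomal protein, by -0.33 (adjusted p = 0.402). Rpl41 had 19.28, 19.32 and 19.40 in subcutaneous samples against 19.17, 19.28 and 18.56 in lung samples, so most of its difference came from lung replicate 3. Rpl9, Rpl27 and Rps21 had differences of -0.02, -0.03 and -0.03, the nearest to 0; they were named after their values were seen. For Rpl9 the 95% interval was -0.48 to 0.44.

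To account for the rest, the other members that fell were Rpl19, Rpl22, Rpl23, Rpl32, Rpl35a, Rpl36, Rpl36a, Rpl32l, Rps15a, Rps16, Rps23 and Rps24, with log2 differences between -1.41 for Rpl32l and -0.70 for Rpl23. Some are named only for this count. Rpl23 and Rps16 had the weakest calls (adjusted p 0.0486 and 0.0411). Rpl23 lost its call on leaving out any 1 array other than subcutaneous replicate 1 (adjusted p 0.0572 to 0.142), and Rps16 on leaving out any 1 of the 9 (0.0506 to 0.128). Rpl19 lost it without lung replicate 1 (0.132) or 3 (0.104) or subcutaneous replicate 2 (0.0882) or 3 (0.106). Rpl35a lost it without lung replicate 1 (0.0746) or 2 (0.0856) or subcutaneous replicate 2 (0.0631) or 3 (0.07).

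The size of the difference varied with the signal of the probe. In 18 members with a mean signal above 18, 3 fell (median -0.48), in 25 with 16 to 18, 7 fell (median -0.66), and in 20 with 10 to 16, 13 fell (median -1.07). The part of the position on the signal scale was not tested.

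**Figure D3:**
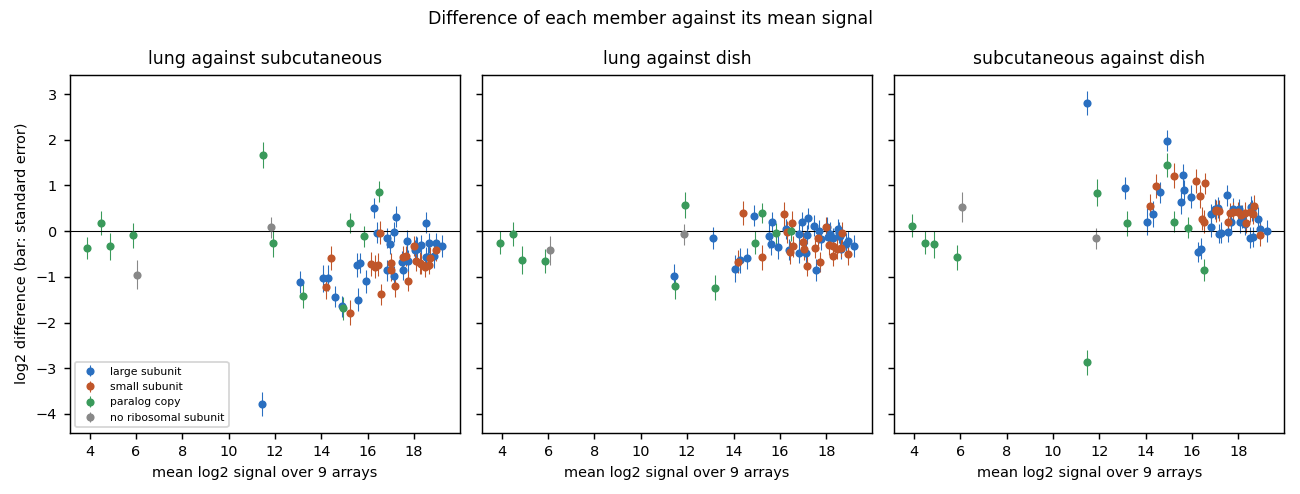
Log2 difference of each of the 68 genes in the 3 comparisons (y axis; bars: standard errors from limma) against its mean log2 signal over 9 arrays (x axis), coloured by class. Differences between lung and subcutaneous samples are wider for signals of 10 to 16 (median -1.07) than above 18 (median -0.48); Rpl39 is the lowest point at -3.78.

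A pair of paralog copies moved the other way. Rpl7l1, a nucleolar relative of Rpl7 that serves in assembly of the large subunit, had 13.06, 12.73 and 12.70 in dish, 10.42, 10.06 and 9.39 in subcutaneous and 11.56, 11.58 and 11.74 in lung samples. The groups were fully separate, with dish highest and subcutaneous lowest. It rose by 1.67 in lung against subcutaneous samples (SE 0.28, adjusted p = 0.00181), while Rpl7 differed by -0.27 (adjusted p = 0.464). Rps27l, a copy of Rps27 that is a target of p53, had 15.91, 15.77 and 16.09 in subcutaneous and 16.87, 16.84 and 16.64 in lung samples. It rose by 0.86 (adjusted p = 0.0223). That call was lost without lung replicate 1 (adjusted p = 0.0906), lung replicate 2 (0.0705) or subcutaneous replicate 2 (0.0661), and with upper quartile scaling (difference 0.57, adjusted p = 0.134).

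The remaining pairs of gene and copy gave these values. Rpl22 had 17.25, 17.25 and 17.21 in subcutaneous and 16.46, 16.33 and 16.35 in lung samples, and fell by 0.86 (adjusted p = 0.0193; 0.0586 without lung replicate 1 and 0.0635 without lung replicate 2). Its copy Rpl22l1, which Rpl22 is known to repress, differed by -0.27 (95% interval -0.90 to 0.36, adjusted p = 0.59). Rpl36a fell by 1.10 (adjusted p = 0.0105), and its copy Rpl36al, with an interval of -0.61 to 0.38, gave no call (difference -0.11, adjusted p = 0.789). Rpl3 differed by -0.28 (adjusted p = 0.43) and Rps4x by -0.70 (adjusted p = 0.0524), while their copies lay under background. Differences between a gene and its copy were not tested against each other.

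Lung against dish samples differed less. None of the 68 members rose and 4 fell: Rpl32l, Rpl7l1, Rpl39 and Rpl35a. Over all genes, 4.81% rose and 1.97% fell. At an unadjusted p under 0.05, 13 of the 68 members passed, beside 4271 of the 19505 genes tested, so the members' share was not above that of all genes. The median of the members was -0.24, beside -0.07 for all genes, and 53 of 68 differences were negative. The lung values lay wholly below the dish values for 26 members, a pattern seen in 15.0% of all genes. No small subunit gene was called in either direction, and their median was -0.34. Without lung replicate 3 the members' median was -0.12, and with quantile normalization it was -0.03.

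Rpl32l, a copy of Rpl32, had 13.44, 13.69 and 13.55 in dish and 11.82, 12.35 and 12.79 in lung samples, and fell by 1.24 (SE 0.27, adjusted p = 0.0145). Rpl32 itself differed by -0.48 (adjusted p = 0.262). Rpl7l1 fell by 1.20 (adjusted p = 0.0204). Rpl35a, a large subunit protein, had 17.62, 17.83 and 18.02 in dish and 17.03, 16.86 and 17.04 in lung samples, and fell by 0.85 (adjusted p = 0.0408). These calls rested on few arrays. No member was called without dish replicate 2, dish replicate 3 or lung replicate 1, and 2 were without dish replicate 1 or lung replicate 2. The adjusted p of Rpl32l was 0.0699, 0.0508 and 0.078 without those first 3 arrays, that of Rpl7l1 was 0.0664, 0.0527 and 0.0818, and that of Rpl35a was 0.124, 0.132 and 0.118. Rpl7l1 also lost the call without dish replicate 1 (0.0645) or lung replicate 2 (0.0655), and Rpl35a without lung replicate 2 (0.132) or 3 (0.0597).

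Subcutaneous against dish samples gave 12 members that rose and 2 that fell, while over all genes 6.41% rose and 6.47% fell. This comparison shares the subcutaneous arrays with the first one and the dish arrays with the second one, so none of them is independent of the others. The median of the members was 0.38, beside -0.01 for all genes, and 54 of 68 differences were positive. The subcutaneous values lay wholly above the dish values for 40 members, a pattern seen in 14.2% of all genes. Of the large subunit genes 7 of 33 rose, of the small subunit genes 4 of 22, and of the copies 1 of 11 (medians 0.38, 0.42 and 0.07). Of the 4 fibroblast markers, Dcn and Lum were called higher in subcutaneous than in dish samples, and 2 gave no call. The part of these markers in the counts was not tested.

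Rpl39 led with 2.80, followed by Rpl10a with 1.98 (adjusted p = 0.000116) and Rps27rt with 1.44 (adjusted p = 0.00263), whose dish values were 14.74, 14.34 and 14.55. Rpl17 rose by 1.22 (adjusted p = 0.00573), Rps10 by 1.21 (adjusted p = 0.0102) and Rps26 by 1.10 (adjusted p = 0.0138). Rps26, a small subunit protein at the mRNA exit, had 15.99, 15.69 and 15.32 in dish and 16.46, 16.83 and 17.01 in subcutaneous samples. Its adjusted p was 0.063 without dish replicate 3 and 0.05 without subcutaneous replicate 3. The other members that rose were Rpl4, Rpl21, Rpl23, Rpl36, Rps13 and Rps15a, by 0.78 to 1.05, named in part only for this count. Of these, Rps15a kept its call without any 1 array, and Rpl23 lost it without dish replicate 1 (adjusted p = 0.0508). Rpl21 lost it without any 1 dish array or subcutaneous replicate 2 or 3 (0.0684 to 0.0918), and Rpl36 without dish or subcutaneous replicate 2 or 3 (0.0609 to 0.0786). Rps13 lost it without dish replicate 1 or 2 or subcutaneous replicate 2 or 3 (0.0587 to 0.0842), and Rpl4 without any 1 array other than lung replicate 2 or 3 (0.0573 to 0.107). Rpl7l1 fell by 2.87, a 7.31-fold difference (adjusted p = 3.23e-05), and Rps27l by 0.85 (adjusted p = 0.0249; 0.0866 without dish replicate 2, 0.0844 without dish replicate 3, 0.056 without subcutaneous replicate 1 and 0.0795 without subcutaneous replicate 2). Rpl22l1 gave no call (0.84, adjusted p = 0.0803), but passed without subcutaneous replicate 1 (1.18, adjusted p = 0.0105). The number that rose was 7 without subcutaneous replicate 3 and 3 with RIN as a covariate. RIN was 8.60, 7.50 and 7.80 on the subcutaneous arrays and 8.40 to 8.60 on the dish arrays.

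Genes that work with the ribosomal proteins were set beside them from written lists. A list of 18 other genes known for TOP messages holds elongation and initiation factors, and also Tpt1, Npm1, Nap1l1, Naca, Btf3 and Vim, which are not translation factors. In lung against subcutaneous samples 8 of the 18 fell and none rose (median -0.71). The 8 were the factors Eef1b2, Eef1g, Eef2, Eif3e and Eif4b, together with Tpt1, Naca and the intermediate filament gene Vim, which is also 1 of the line's markers above. Subcutaneous against dish, 7 rose and none fell (median 0.51): Eef1b2, Eef2, Eif3e, Eif4b, Tpt1, Naca and Vim. Tpt1, a growth-related protein with a classic TOP message, had 16.20, 16.74 and 16.63 in subcutaneous and 14.66, 14.77 and 14.72 in lung samples, and fell by 1.81 (adjusted p = 0.000386). Eef2, which moves the ribosome along the message, fell by 1.81 as well (adjusted p = 0.000933), and Eef1b2, an exchange factor for elongation factor 1, by 1.76 (adjusted p = 0.000933). Of 25 other initiation and release factors, 6 rose and none fell in lung against subcutaneous samples (median 0.26). Fau, a small subunit gene outside the symbol rule, differed by -0.55 (adjusted p = 0.112).

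Ribosome assembly and the mitochondrial ribosome had medians of the opposite sign. Of 43 genes of ribosome biogenesis, 19 rose and none fell in lung against subcutaneous samples (median 0.60), and subcutaneous against dish 1 rose and 14 fell (median -0.57). For 5 of the 19 all subcutaneous values lay under the background guide, and for 2 more some did. Taf1c and Nle1, among the 5, lay under it on all lung arrays as well. Of the 14 that fell, 2 lay under it on all subcutaneous arrays and 1 more on some. Taf1b, the 1 that rose, lay under it on all dish arrays. Npm1 is in this list and also among the TOP-message genes. It differed by -0.79 in lung against subcutaneous samples (limma adjusted p = 0.0553). Polr1a, the catalytic subunit of RNA polymerase I, had 7.43, 6.95 and 6.50 in subcutaneous and 9.27, 9.55 and 9.37 in lung samples, and rose by 2.44 (adjusted p = 0.000186). It exceeded background on 1 of the 3 subcutaneous arrays; with values under background set to the guide, the rise is 1.89. Bysl, needed for the small subunit's assembly, rose by 2.34 (adjusted p = 0.000236). Myc, which drives ribosome production in many cells, differed by -0.30 (adjusted p = 0.458). Of 76 mitochondrial ribosomal protein genes, 29 rose and 1, Mrpl34, fell in lung against subcutaneous samples (median 0.53). For 6 of the 29 all subcutaneous values lay under background, and for 2 more some did. Mrps15, among the 6, lay under it on all lung arrays as well. Subcutaneous against dish, 1 of the 76, Mrps18b, rose and 23 fell (median -0.41). For 4 of the 23 all subcutaneous values lay under background, and for 1 more some did. Mrpl46 had 9.52, 9.74 and 8.58 in subcutaneous and 11.67, 11.29 and 11.76 in lung samples, and rose by 2.29 (adjusted p = 0.000483). The difference between these lists and the members was not tested.

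**Figure D4:**
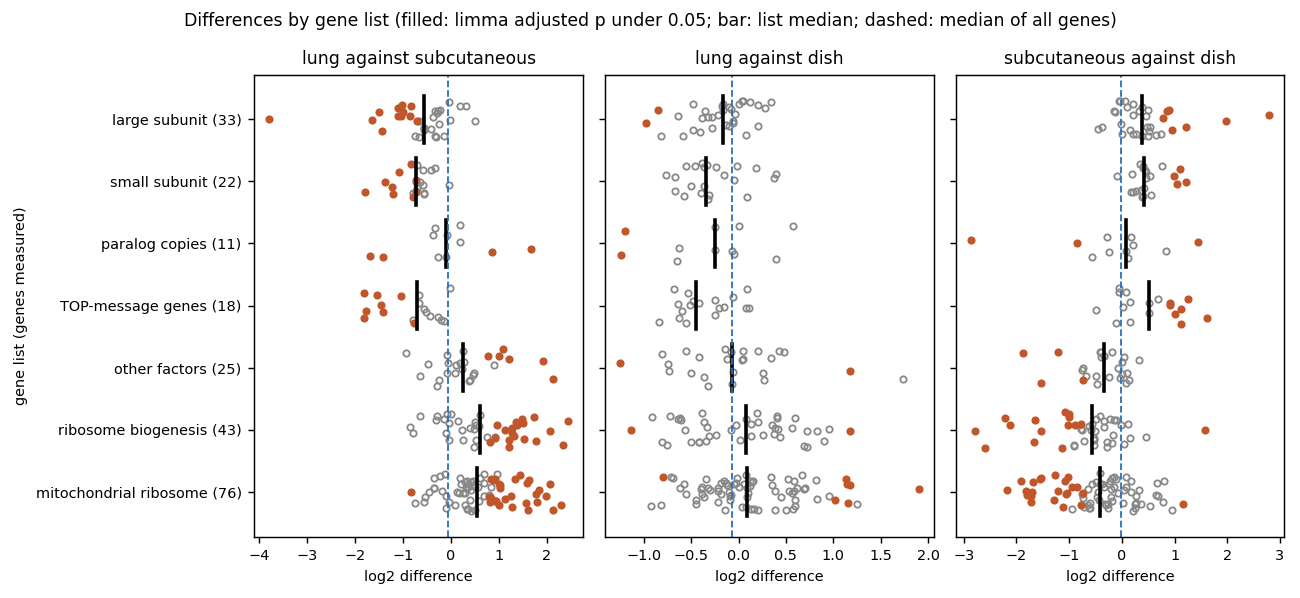
Log2 differences of single genes in 7 lists for the 3 comparisons (x axis; number of genes measured in brackets; filled points: limma adjusted p under 0.05; black bar: list median; dashed line: median of all genes). In lung against subcutaneous samples the medians are -0.56 and -0.72 for the subunits and -0.71 for TOP-message genes, against 0.60 for ribosome biogenesis and 0.53 for the mitochondrial ribosome.

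Of 17 genes of mTORC1 and S6 kinase control, 3 rose and 3 fell in lung against subcutaneous samples. Mtor, the kinase itself, was under background on all 3 subcutaneous arrays and had 7.79, 8.72 and 8.22 in lung samples, at least 1.66-fold higher (the lung mean against the background guide on the subcutaneous arrays; adjusted p = 0.00413 for the measured values). Tsc2, which restrains it, rose by 1.39 (adjusted p = 0.00864). Larp1, which binds TOP tracts, rose by 1.35 (adjusted p = 0.042), with 13.07, 13.82 and 11.72 in lung against 11.73, 11.42 and 11.40 in subcutaneous samples, so lung replicate 3 lay within the subcutaneous range. Pdcd4, an inhibitor of initiation that S6 kinase marks for decay, fell by 1.58 (adjusted p = 0.00195) and the translation repressor Eif4ebp1 by 1.11 (adjusted p = 0.0236). The third gene counted as lower, Sesn1, exceeded background on 1 subcutaneous array and on no lung array, and nothing is read from its difference. The long-message list was likewise highest on the lung arrays, and its part in these and the assembly genes was not tested.

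The promoter features did not follow the calls in one way. Windows were found for 16 of the 21 subunit genes that fell in lung against subcutaneous samples and for 27 of the 34 not called. A gene was counted if any of its windows held the feature. A TOP start was found in 4 of the 16 (25.0%) and in 7 of the 27 (25.9%). The 16 genes have 24 windows and the 27 have 28, and per window the TOP shares were 16.7% and 25.0%. The ETS core was found in 4 of the 16 genes (25.0%) and 15 of the 27 (55.6%), and the YY1 core in 4 (25.0%) and 3 (11.1%). Per window these shares were 16.7% and 57.1% for the ETS core, and 25.0% and 10.7% for the YY1 core. No test was made of these shares, which are descriptions of letters in the windows.

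Near-identical copies limit what a single symbol stands for. The RefSeq table holds 306 ribosomal protein pseudogenes by symbol, and 44 of the 68 members have at least 1, with 23 for Rpl31, 15 for Rpl21 and 13 for Rps19. Only symbols made of a ribosomal protein symbol and -ps were counted, so members without one may have copies under other names. How far the probes separate a gene from its processed copies could not be examined, and the values of any member may include signal of copies.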

How the data were processed

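RNA from 9 samples was measured on 1-colour biotin-labelled whole-transcript arrays, per the labels' protocols. The authors deposited log2 signals (28846 rows), used as deposited; of normalization, software and build the labels say nothing. Platform annotation named 19572 of 22206 gene features. For symbols with several features the one with the highest mean was kept, giving 19505 genes, with no filter on level. Members, lists and figure genes were chosen with earlier results of these data known. The test was limma 3.58.1 under R 4.3.3 (lmFit, eBayes; 3 group means, all 9 arrays, 6 residual and 7.08 prior degrees of freedom), two-sided, with Benjamini-Hochberg adjustment over all genes and a call at an adjusted p under 0.05. The fit was tested on simulated data. Named members were those with a taught role, pairs of gene and copy, and up to 6 called members with the highest and lowest differences per comparison. Intervals are 95%. Array number limits precision. Alternatives covered scaling, filtering, covariates, array weights, an intensity trend, a replicate block and leaving out each array. The long-message list was written, and its covariate added, after the data were seen.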

Additional observations from a re-analysis of the deposited data

Results flagged for a closer look

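Rpl39 was the only member called in opposite directions from dish samples in the 2 transplanted groups. It was higher on all subcutaneous arrays and lower on all lung arrays than on the dish arrays. Other members, such as Rpl21, Rps6, Rps10 and Rps24, were separated in the same way, but without both calls. The call of Rpl39 in lung against dish samples was lost under 9 of the 19 alternatives. The test of the difference between the transplanted groups gave -3.78 on the log2 scale (limma adjusted p = 1.38e-05). That difference ran from -4.07 to -3.37 over the 19 alternatives, with the call kept in each.

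A signal was also present in a feature that the member rule leaves out. The pseudogene feature Rpl31-ps12 had a mean of 17.73 over the 9 arrays, far above the negative controls. It read 18.01, 18.32 and 18.23 in subcutaneous and 17.33, 17.62 and 17.09 in lung samples, a difference of -0.84 (limma adjusted p = 0.0357). Rpl31 itself differed by -0.57 (adjusted p = 0.124). Whether the feature reads Rpl31 messages was not tested.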

How the results depend on the processing

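Deviations from the group means of same-numbered arrays correlated at -0.06 to 0.09, and those of differently numbered arrays at -0.14 to 0.10. With 3 arrays a group, these values cannot settle whether the sample numbers mark pairs. With the number as a replicate block, 2 rather than 4 members were lower in lung against dish samples; the other counts stayed within 1.5 times.

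Of members lower in lung against subcutaneous samples (23), 35 were called with dim genes left out, 39 with an intensity trend, 40 with upper quartile scaling, 15 with quantile normalization and 4 with the long-message covariate; leaving out single arrays gave 14 to 23. Of the 2 higher, 1 was called with upper quartile scaling, 0 with the long-message covariate, and 1 to 2 without single arrays. The median of -0.58 was -0.80 with that covariate, -0.22 with quantile normalization, -0.87 with upper quartile scaling, and -0.68 to -0.48 without single arrays. Upper quartile scaling moved the median of all genes to -0.36 here and to -0.40 for lung against dish, so that the members stood 0.52 below it, as they did with the deposited values, and 0.21 below it with quantile normalization. The split of calls over all genes was 1797 higher and 1130 lower as deposited, 1454 and 1232 with quantile normalization, and 1157 and 2716 with upper quartile scaling.

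For lung against dish, the 4 lower members became 1 with RIN as a covariate, 9 with array weights, 12 with an intensity trend, 0 with the long-message covariate and 12 with upper quartile scaling, and 0 to 4 without single arrays. The median of -0.24 was -0.48 with the long-message covariate, -0.03 with quantile normalization, -0.57 with upper quartile scaling, and -0.30 to -0.12 without single arrays. For subcutaneous against dish, the 12 higher members became 3 with RIN, 28 with the trend and 7 to 13 without single arrays, and the 2 lower became 1 with RIN and 1 to 2 without single arrays. The median of 0.38 was 0.23 with RIN, 0.25 with quantile normalization and 0.33 to 0.45 without single arrays. The cause of these shifts was not tested.

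Of 43 called pairs of gene and comparison, 8 kept the call under all 19 alternatives: Rpl39 and Rpl10a in both comparisons with subcutaneous samples, Rpl17 and Rpl21 in lung against subcutaneous, and Rpl7l1 and Rps27rt in subcutaneous against dish. None of the 43 changed sign. A planned covariate from genes of very long proteins was not run, since no protein table was used here.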
